A study of Mus musculus with 8 samples.

Results

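The G1 cyclins, their cyclin-dependent kinases (CDKs) and the CDK inhibitors form the switch that commits a cell to DNA replication. They were followed here as 10 genes chosen by symbol (Ccnd2, Ccnd3, Ccne1, Ccne2, Cdk2, Cdk4, Cdk6, Cdkn1a, Cdkn1b and Cdkn2c) among the 35072 genes of a mouse RNA-seq table. The symbols were listed for their roles, with earlier results of these data known. All 10 were found once each and all 10 passed the filter on low counts, which left 13299 genes for testing. The libraries come from wildtype CD8 T cells of spleen and lymph nodes. All libraries share an 18 h activation of naive cells by anti-CD3, anti-CD28 and interleukin-12. Cells of 4 libraries then received 2 mM formate, a one-carbon metabolite, for 24 h, and 4 received PBS as vehicle. Information on strain, age, sex and pooling of animals was not given in the sources used here. Nor do the labels state that the 4 libraries of a group are from different animals or cultures; the p-values therefore reflect only how these libraries vary, which may be technical.

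In a dividing T cell, D-type cyclins accumulate after antigen receptor and cytokine signals and activate CDK4 and CDK6. These kinases phosphorylate the retinoblastoma protein (RB), which then releases E2F transcription factors, and E2F in turn drives the E-type cyclins, whose partner CDK2 completes the step into S phase. The inhibitors hold the switch back: CDKN1A (p21) and CDKN1B (p27) bind cyclin-CDK complexes broadly, whereas CDKN2C (p18) binds CDK4 and CDK6. In lymphocytes p27 is high at rest and falls on activation, and cyclins D2 and D3 are the main D-type cyclins.

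Library totals were 29361986 to 38010357 estimated counts with formate and 30275374 to 41393093 with PBS. The smallest count of any member in a library was 436, for Cdkn2c, for which counting alone gives an error of 4.79%. The titles carry sample codes, 2, 8, 11 and 14 for formate and 1, 7, 10 and 13 for PBS, and values below are given in that order. Each formate code has a PBS code as its neighbour, and fits were made without and with these neighbouring pairs as a block (the unpaired and the paired fit), although no label states a pairing. Summed CD8 T cell markers (7 of 8 listed genes found, Cd8a among them) were at 1767 to 1870 CPM (counts scaled to library size) with formate and at 1776 to 1918 CPM with PBS. B cell markers summed to 17.0 to 31.1 CPM with formate and 15.6 to 27.6 CPM with PBS, CD4 T cell markers to 12.8 to 22.03 CPM with formate and 12.8 to 20.5 CPM with PBS, and myeloid and dendritic markers to 4.03 to 6.80 CPM with formate and 3.42 to 5.81 CPM with PBS. Erythroid markers summed to 1.72 to 5.80 CPM with formate and 1.49 to 7.09 CPM with PBS, with Hba-a1 at 0 throughout. The NK list summed to 35.3 to 79.7 CPM with formate and 43.2 to 89.1 CPM with PBS, nearly all of it Eomes, which effector CD8 T cells also express. Within neighbouring pairs the B cell and the myeloid sums were higher with formate in 4 of 4 pairs and the NK sum was lower in 4 of 4, and their part in the results below was not tested.

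Of the 10 members, 0 passed an adjusted p of 0.05 in the unpaired fit (edgeR quasi-likelihood test, Benjamini-Hochberg over all tested genes), where 0.00752% of all genes tested did. At an unadjusted p under 0.05 the number was 2, Ccnd3 and Ccne2, beside 634 of the 13299 genes tested. DESeq2 without the block called Ccnd3 (it called 0.191% of the genes it tested). In the paired fit 3 members passed: Ccnd3 fell, and Ccne2 and Cdkn1b rose. That fit called 12.9% of all genes, 5.35% as higher and 7.52% as lower, so 3 calls among 10 genes come from a background in which calls were common. With the block 6 members had an unadjusted p under 0.05, as had 3761 of the 13299 genes. The split of all calls moved with the scaling or tool: 711 higher and 1000 lower as fitted, 832 and 736 with upper quartile scaling, 1048 and 539 with library size only, and 492 and 1082 with DESeq2. The median log2 change of the members was -0.02 in both fits, against -0.01 (unpaired) and 0.00 (paired) over all tested genes and -0.02 in both fits over genes averaging more than 50 counts.

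**Figure D1:**
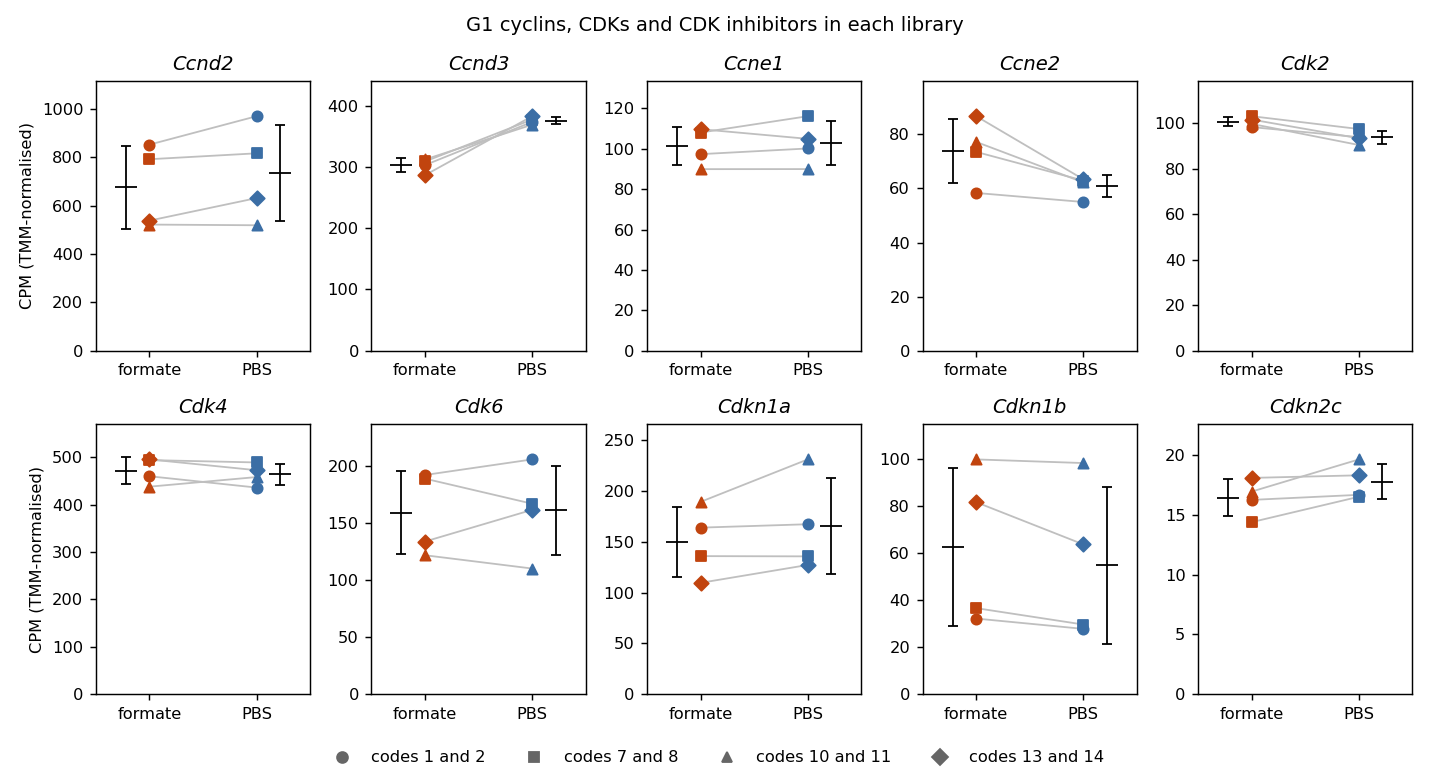
CPM (TMM-normalised, vertical axes from 0) of each member in the 4 formate and the 4 PBS libraries; marker shapes stand for neighbouring title codes, grey lines join them, and black bars are mean and SD (n = 4). Ccnd3 with formate (286 to 312 CPM) lies below every PBS library (369 to 383 CPM), whereas Cdkn1b and Ccnd2 split by title code within both groups.

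Promoter sequence is shown for the 2 members whose formate and PBS libraries did not overlap (as in 4.29% of all tested genes), Ccnd3 and Cdk2, for Cdk4 as the partner of cyclin D3, and for Cdkn1a because p53 target genes are described below. RefSeq windows on GRCm38.p6 run from 250 bases before to 50 bases after an annotated start, and 8 of the 10 members have an entry. The matches in them describe letters only, and binding was not tested. Both strands were searched for the E2F motif (TTTGGCGC, TTTCGCGC, TTTCCCGC or TTTGCCGC, in 2.26% of 32851 windows), the E-box CACGTG bound by MYC and related factors (7.15%), the p53 core letters CATG on both sides of any 6 bases (0.712%) and the cyclic AMP response element core TGACGT (7.51%). Capitals mark the matches, of which none overlapped one of another motif. The Ccnd3 window is the internal start at chr17:47593217-47593516 (plus strand), with TGACGT at position -28 from the start, and the window of its upstream start held no match. The Cdk2 window is chr10:128705002-128705301 (minus strand), with an E2F match on the opposite strand at position -140 and TGACGT at position -54. The Cdk4 window, chr10:127063285-127063584 (plus strand), holds 4 E-boxes. Of the windows not shown, that of Cdk6 held 1 E-box at position -220, and that of the downstream Cdkn2c start held 1 at position 35. The Cdkn1a window, chr17:29090729-29091028 (plus strand), is that of its upstream start and holds the p53 letters at position -48. The window of the downstream Cdkn1a start held no match to any of these motifs.
Ccnd3: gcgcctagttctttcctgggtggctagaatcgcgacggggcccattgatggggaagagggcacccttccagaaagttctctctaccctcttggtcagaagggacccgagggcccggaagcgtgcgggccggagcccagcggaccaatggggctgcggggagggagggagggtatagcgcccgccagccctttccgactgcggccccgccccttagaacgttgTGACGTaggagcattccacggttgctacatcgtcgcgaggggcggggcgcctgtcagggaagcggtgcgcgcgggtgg
Cdk2: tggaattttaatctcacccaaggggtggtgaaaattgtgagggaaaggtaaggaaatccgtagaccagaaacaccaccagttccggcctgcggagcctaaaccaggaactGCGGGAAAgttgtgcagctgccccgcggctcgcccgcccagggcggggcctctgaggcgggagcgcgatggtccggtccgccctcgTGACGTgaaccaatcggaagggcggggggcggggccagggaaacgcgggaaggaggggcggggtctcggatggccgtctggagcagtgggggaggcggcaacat
Cdk4: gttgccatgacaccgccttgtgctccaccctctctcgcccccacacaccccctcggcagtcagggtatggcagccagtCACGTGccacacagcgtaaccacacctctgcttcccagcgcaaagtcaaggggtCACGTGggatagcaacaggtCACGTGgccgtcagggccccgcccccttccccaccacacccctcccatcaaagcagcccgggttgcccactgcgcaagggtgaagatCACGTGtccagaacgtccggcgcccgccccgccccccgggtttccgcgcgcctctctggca
Cdkn1a: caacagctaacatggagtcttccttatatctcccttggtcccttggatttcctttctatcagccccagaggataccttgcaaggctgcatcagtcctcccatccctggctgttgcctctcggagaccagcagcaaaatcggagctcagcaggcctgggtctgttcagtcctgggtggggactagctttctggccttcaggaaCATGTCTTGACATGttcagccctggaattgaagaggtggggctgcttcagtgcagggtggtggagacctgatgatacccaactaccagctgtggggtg

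Of the D cyclins, Ccnd3 passed in the paired fit and Ccnd2 did not; the difference between them was not tested. Ccnd3, which encodes cyclin D3 (ENSMUSG00000034165, chr17:47505051-47599691, plus strand, GRCm38 as in GENCODE M21, like all gene positions below), had 303, 309, 312 and 286 CPM in the formate libraries of codes 2, 8, 11 and 14, against 373, 377, 369 and 383 CPM in the PBS libraries of codes 1, 7, 10 and 13. All formate libraries lay below all PBS libraries, with a gap wider than the range inside either group. Such separation with formate lower held for 1.85% of all tested genes. The means were 302 ± 11.4 CPM with formate and 375 ± 5.86 CPM with PBS (SD, n = 4), so that the level decreased by 19.4%. The log2 change was -0.31 in both fits, with an SE of 0.07 (95% interval -0.47 to -0.15) unpaired and 0.05 (-0.41 to -0.22) paired. The edgeR adjusted p was 0.998 in the unpaired fit, where Ccnd3 stood at rank 18 of 13299 by p, and 0.00173 in the paired fit. DESeq2 without the block gave an adjusted p of 2.47e-06 for the same gene, and the range over all unpaired alternatives was 2.47e-06 to 1.00. In the paired fit the adjusted p lay between 0.00466 and 0.0337 when any one pair was left out, and at 0.102 within codes 10 to 14 alone, where the change was -0.32 (SE 0.09). With an offset for GC content of transcripts, under which 9.57% of genes were called, the paired change was -0.26 (SE 0.05, adjusted p = 0.00354), and over all paired alternatives the adjusted p was 1.05e-08 to 0.102.

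Ccnd2, for cyclin D2 (chr6:127125162-127152193, minus strand), had 852, 792, 522 and 538 CPM with formate, against 969.8, 816, 519 and 631 CPM with PBS. The groups overlapped throughout, and in both groups the libraries of codes 10 to 14 were the lower ones. Means were 676 ± 171 CPM with formate and 734 ± 199 CPM with PBS (SD, n = 4), with a log2 change of -0.11 (SE 0.05, 95% interval -0.22 to -0.01, edgeR adjusted p = 0.152) in the paired fit and -0.12 (SE 0.23, adjusted p = 0.998) in the unpaired fit. Neither call was made, and formate was higher in 1 of 4 pairs.

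Because a scaling factor cancels in a ratio of 2 genes from the same library, the D cyclins were also set against a partner. The estimated counts of Ccnd3 over those of Cdk4, the kinase that cyclin D3 activates, were 0.658, 0.625, 0.712 and 0.578 with formate and 0.856, 0.771, 0.805 and 0.809 with PBS. Every formate library was below every PBS library in this ratio, which depends on no normalisation. Against Cdk6, the other kinase of the D cyclins, the groups overlapped. Counts of Ccnd3 and Cdk6 were 9405 and 3675 in the formate library of code 11. In the PBS library of code 1 they were 13810 and 7628, a lower ratio. The share of gene pairs separated as Ccnd3 and Cdk4 are was not determined. Ccnd3 over Ccnd2 was 0.355, 0.390, 0.598 and 0.532 with formate against 0.385, 0.462, 0.711 and 0.606 with PBS; it was lower with formate in each pair, but the groups overlapped. These ratios compare groups, not levels of one gene with another, since counts also scale with transcript length.

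Of the E cyclins, partners of CDK2, Ccne2 passed in the paired fit and Ccne1 did not; the difference between them was not tested. Ccne2 (cyclin E2; chr4:11191351-11204779, plus strand) had 58.3, 73.5, 77.2 and 86.7 CPM with formate, against 55.0, 62.9, 62.3 and 63.4 CPM with PBS. Formate was higher in 4 of 4 pairs, as for 16% of all genes. Of the formate libraries 3 lay above all PBS libraries, while that of code 2 lay among them. Means were 74.0 ± 11.8 CPM with formate and 60.9 ± 3.96 CPM with PBS (SD, n = 4). The paired fit gave a log2 change of 0.27 (SE 0.06, 95% interval 0.15 to 0.39, edgeR adjusted p = 0.00842) and the unpaired fit 0.28 (SE 0.12, 0.01 to 0.56, adjusted p = 0.998). The call was lost with GC offsets, where the paired change was 0.04 (SE 0.06, adjusted p = 0.725). The longest Ccne2 coding transcript has a GC content of 36.3%, and the part of GC content in the change was not tested further. It was also lost without codes 13 and 14 (0.21, adjusted p = 0.0630), within codes 1 to 8 (0.15, 0.163) and within codes 10 to 14 (0.40, 0.0574), and the adjusted p ranged over 8.69e-05 to 0.725 in the paired alternatives.

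Ccne1 (cyclin E1; chr7:38097984-38107534, minus strand) had 97.4, 108, 89.9 and 109.7 CPM with formate and 100.2, 116, 89.95 and 105 CPM with PBS. Its paired log2 change was -0.02 (SE 0.05, edgeR adjusted p = 0.819), and the 95% interval of -0.12 to 0.08 leaves room for changes of either sign inside it. The direction itself turned with the scaling, at 0.02 with library size only. Counts of Ccne2 over counts of Ccne1 were 0.599, 0.681, 0.859 and 0.790 with formate, against 0.549, 0.542, 0.692 and 0.604 with PBS, higher with formate in each pair but with overlapping groups.

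**Figure D2:**
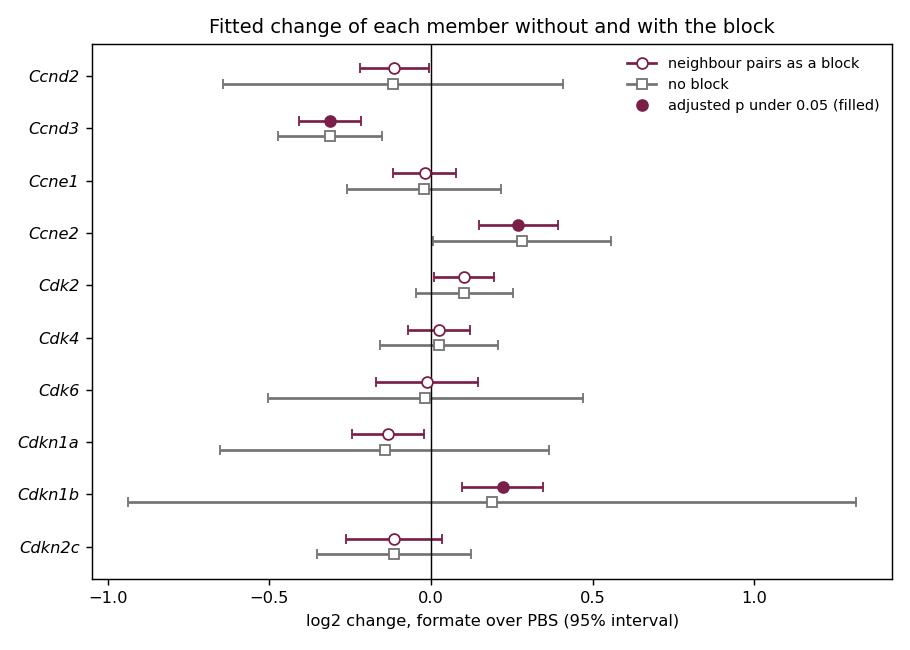
Fitted log2 change of formate over PBS for each member (horizontal axis) with 95% intervals, with neighbouring pairs as a block (circles) and without it (squares); filled symbols have an edgeR adjusted p under 0.05. Ccnd3 (-0.31), Ccne2 (0.27) and Cdkn1b (0.22) are filled in the paired fit and no member is filled in the unpaired fit; intervals of Cdkn1b, Ccnd2, Cdk6 and Cdkn1a narrow most with the block.

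Among the kinases, Cdk2, the partner of the E cyclins (chr10:128697939-128705031, minus strand), had 98.3, 103, 99.7 and 102 CPM with formate and 93.9, 97.5, 90.5 and 93.4 CPM with PBS. The groups did not overlap, as for 2.44% of all tested genes with formate higher, and formate was higher in 4 of 4 pairs, as for 16% of all genes. Means of 101 ± 2.11 CPM with formate and 93.8 ± 2.88 CPM with PBS (SD, n = 4) lie 7.34% apart. The paired log2 change was 0.10 (SE 0.04, 95% interval 0.01 to 0.20), and the call missed in both fits (edgeR adjusted p = 0.136 paired and 0.998 unpaired). Cdk4, the kinase of the D cyclins (chr10:127063534-127067920, plus strand), had 459.9, 494, 438 and 495 CPM with formate, against 436, 489, 458 and 473 CPM with PBS. Its paired log2 change was 0.02 (SE 0.05, 95% interval -0.07 to 0.12, edgeR adjusted p = 0.782), an interval that excludes a change as large as that of Ccnd3. Cdk6, the other D cyclin kinase (chr5:3341485-3531008, plus strand), had 192, 189, 122 and 134 CPM with formate and 206, 167, 110.2 and 162 CPM with PBS, with formate higher in 2 of 4 pairs. Its change was -0.01 (SE 0.07, 95% interval -0.17 to 0.14, edgeR adjusted p = 0.926) in the paired fit and turned to 0.01 with upper quartile scaling.

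Of the inhibitors, Cdkn1b passed in the paired fit, and Cdkn1a and Cdkn2c did not. Cdkn1b (p27; chr6:134920401-134925513, plus strand) had 32.1, 36.5, 99.9 and 81.6 CPM with formate, against 27.7, 29.6, 98.3 and 63.7 CPM with PBS. It was higher with formate in 4 of 4 pairs, as were 16% of all genes, but the groups overlapped almost wholly. In both groups the libraries of codes 10 to 14 stood far above those of codes 1 to 8. The paired log2 change was 0.22 (SE 0.06, 95% interval 0.10 to 0.35, edgeR adjusted p = 0.0228) and the unpaired one 0.19 (SE 0.50, -0.94 to 1.31, adjusted p = 0.998). The paired call was lost without codes 1 and 2 (0.23, adjusted p = 0.0961), 7 and 8 (0.20, 0.0949) or 13 and 14 (0.17, 0.144), within codes 1 to 8 (0.25, 0.0637) and 10 to 14 (0.20, 0.272), and with GC offsets (0.18, 0.0626). Without codes 10 and 11, whose pair differed by 0.02, it was kept (0.30, 0.0149), and over the paired alternatives the adjusted p was 0.00422 to 0.272.

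Cdkn1a (p21), a classical target gene of p53 (chr17:29090976-29100727, plus strand), had 164, 136, 189 and 109.6 CPM with formate and 167, 136, 231 and 127 CPM with PBS. Formate was lower in the pairs of codes 10 to 14 and close to level in those of codes 1 to 8, with pair differences of -0.03, 0.00, -0.29 and -0.22 on the log2 scale. The paired change was -0.13 (SE 0.05, 95% interval -0.24 to -0.02, edgeR adjusted p = 0.105), the unpaired one -0.14 (SE 0.22, adjusted p = 0.998), and neither passed. A test of whether the formate effect differed between codes 10 to 14 and codes 1 to 8 gave -0.24 (SE 0.08) for Cdkn1a and 0.23 (SE 0.10) for Ccne2, with edgeR adjusted p values of 0.869 and 0.944. None of the 10 members passed that test at the adjusted threshold, against 0.0677% of all genes. Cdkn1a and Ccne2 had an unadjusted p under 0.05 (edgeR), and the share of all genes at that unadjusted threshold was not determined. Cdkn2c (p18), the inhibitor of the D cyclin kinases (chr4:109660876-109667189, minus strand), had 16.3, 14.4, 17.0 and 18.1 CPM with formate, against 16.7, 16.5, 19.6 and 18.3 CPM with PBS. It was lower in 4 of 4 pairs, as were 19.5% of all genes, with a paired log2 change of -0.11 (SE 0.07, edgeR adjusted p = 0.304), and the groups overlapped.

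**Figure D3:**
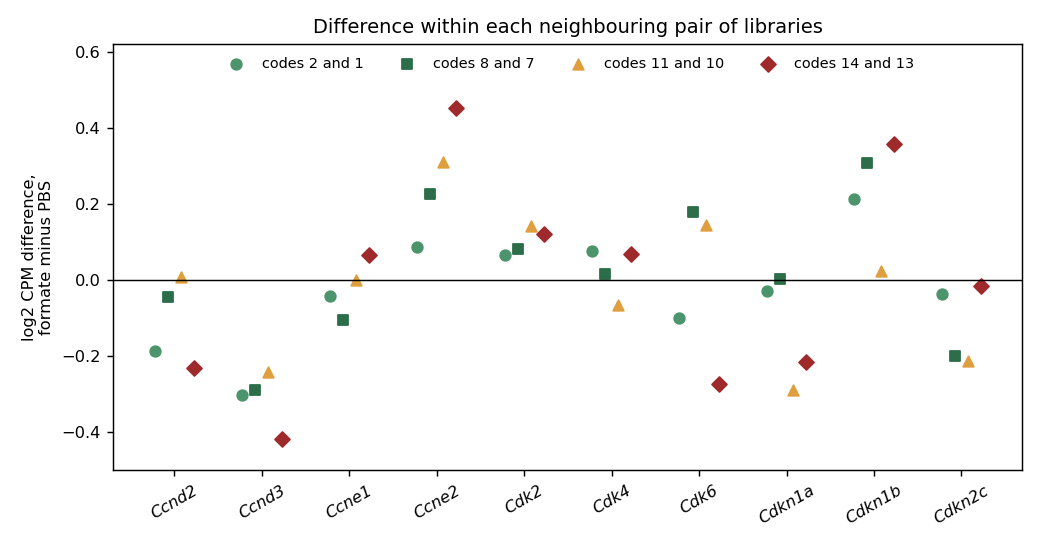
Difference in log2 CPM, formate minus PBS, within each pair of neighbouring title codes (vertical axis) for each member; colour and shape mark the pair. Ccnd3 is below 0 in all 4 pairs (-0.42 to -0.24) and Ccne2 above 0 in all 4 (0.09 to 0.45), whereas Cdk6 and Ccne1 scatter on both sides of 0. Of all tested genes 19.5% were lower and 16% higher in 4 of 4 pairs.

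Levels by set of title codes are given as a description. In 4 of the 10 members the libraries of codes 10 to 14 did not overlap with those of codes 1 to 8, in both treatments together, a share near the 33.9% of all tested genes for which this held and so not particular to the members. Cdkn1b was 2.73-fold higher in codes 10 to 14 (63.7 to 99.9 CPM) than in codes 1 to 8 (27.7 to 36.5 CPM), 2.65-fold among formate libraries and 2.83-fold among PBS libraries. Cdkn2c was 1.14-fold higher in codes 10 to 14. Ccnd2 was 0.644 times and Cdk6 0.699 times as high in codes 10 to 14 as in codes 1 to 8. Ccnd3, Cdk2 and Cdk4 had ratios of 0.991, 0.981 and 0.992. What separates the code sets is not labelled, so these are descriptions with no test, and each treatment has 2 libraries in each set.

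Levels of different genes were compared only per length, as CPM per kb of the longest coding transcript. Cdk4 was highest, with 229.8 ± 13.6 CPM per kb with formate and 226 ± 10.97 with PBS (SD, n = 4), and Ccnd3 followed with 143 ± 5.37 with formate and 178 ± 2.77 with PBS. Ccnd2 (107 ± 27.0 with formate, 116 ± 31.5 with PBS) and Cdkn1a (72.0 ± 16.6 with formate and 79.5 ± 22.7 with PBS) came next and lay within each other's spread in part. Ccne1 (50.6 ± 4.67 with formate and 51.4 ± 5.44 with PBS) stood above Cdk2 (41.9 ± 0.875 with formate and 39.0 ± 1.199 with PBS) and Ccne2 (24.6 ± 3.92 with formate and 20.3 ± 1.32 with PBS). Cdk6 (13.8 ± 3.18 with formate and 14.0 ± 3.42 with PBS) and Cdkn1b (13.7 ± 7.36 with formate and 12.04 ± 7.34 with PBS) did not differ beyond their spread, and Cdkn2c was lowest (6.65 ± 0.628 with formate and 7.20 ± 0.599 with PBS). The order depends on the transcript length used: the longest Cdk6 transcript has 11525 bases against a median of 697 over its 5 coding transcripts, and with median lengths Ccnd2 came before Cdk4 and Cdk6 moved up to the fourth place.

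**Figure D4:**
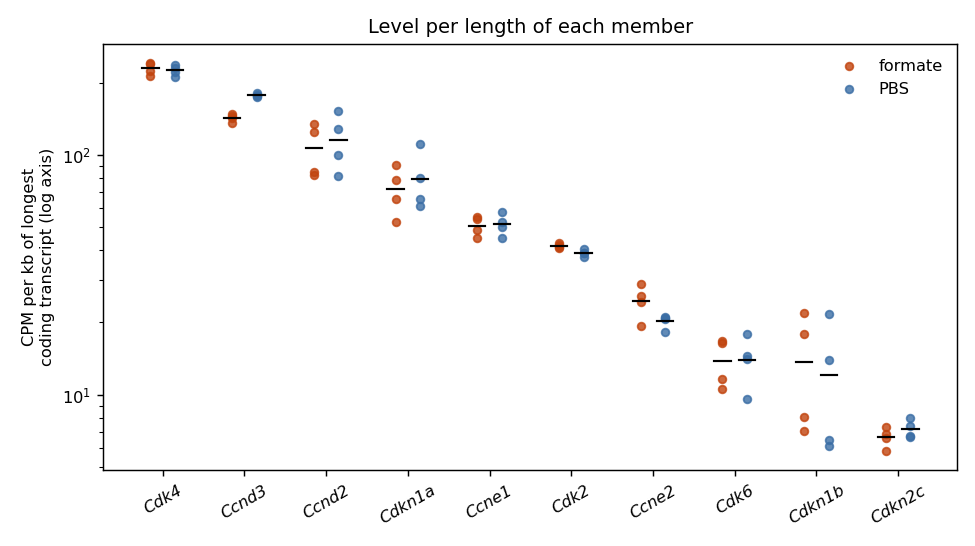
CPM per kb of the longest coding transcript (log axis) for each member, formate left of PBS; points are libraries and black lines group means (n = 4). Cdk4 is highest at 229.8 with formate and 226 with PBS and Cdkn2c lowest at 6.65 with formate and 7.20 with PBS; Ccnd3 is the one member among the upper 5 whose groups are apart.

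Genes around the G1 machinery were described from lists chosen with earlier results of these data known. None of their members passed in the unpaired edgeR fit, and counts below are from the paired fit, beside 5.35% higher and 7.52% lower among all genes. These calls were not followed through the other settings used for the G1 members. Of 16 genes for CDK activation and for turnover of cyclins and inhibitors, 3 rose, 1 fell and 12 did not pass (median -0.03). Cdk7, the CDK-activating kinase, averaged 58.4 ± 5.68 CPM with formate and 49.9 ± 4.55 CPM with PBS (SD, n = 4; log2 change 0.23, adjusted p = 0.0114). Cks2, a small CDK-binding subunit (0.18, 0.0205), and Skp1, a ubiquitin ligase subunit (0.17, 0.0359), rose as well, and Cdc25a, the phosphatase that activates CDK2, fell (-0.19, 0.0220). Skp2, the ligase subunit that directs degradation of p27, had 0.14 and did not pass (edgeR adjusted p = 0.15).

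Of 16 RB and E2F family genes tested, 1 rose, 1 fell and 14 did not pass (median -0.03). E2f6, a repressor of the family, averaged 48.5 ± 4.67 CPM with formate and 41.3 ± 6.996 CPM with PBS (SD, n = 4; log2 change 0.24, edgeR adjusted p = 0.0200), and E2f4, which acts mainly with RB-family repressors, fell (-0.14, 0.0395). E2F target genes of S phase had 9 of 20 members lower, 0 higher and 11 not passing, with a median of -0.11. Among them Mcm3 of the replicative helicase averaged 522 ± 64.0 CPM with formate and 606 ± 53.4 CPM with PBS (SD, n = 4; -0.22, edgeR adjusted p = 0.00776), and Pola1 (-0.26, 0.00877), the cell cycle transcription factor gene Mybl2 (-0.19, 0.0154) and Mcm2 (-0.19, 0.0190) fell too. All 6 listed Mcm genes were among the 9. Of the 5 S and G2 cyclin and Cdk1 genes 2 fell and 3 did not pass: Ccna2 (cyclin A2), at 233 ± 22.9 CPM with formate and 274 ± 21.5 CPM with PBS, had a log2 change of -0.23 (edgeR adjusted p = 0.00475), and Ccnf (cyclin F) one of -0.21 (0.0125).

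Of 20 genes for p53 and its targets, 3 rose, 1 fell and 16 did not pass (median 0.03). Trp53 itself, the gene for p53, fell (-0.15, edgeR adjusted p = 0.0348), while Mdm4 (0.27, 0.00284) and Mdm2 (0.15, 0.0372), which encode p53 inhibitors, and the p53-induced gene Trp53inp1 (0.30, 0.00617) rose. Mdm4 averaged 131 ± 8.23 CPM with formate and 109 ± 10.3 CPM with PBS (SD, n = 4). Of 12 FOXO genes and targets, listed because FOXO factors drive Cdkn1b, 1 fell and 11 did not pass (median -0.12). The 1 gene was Foxo1, at 69.0 ± 6.70 CPM with formate and 79.4 ± 6.89 CPM with PBS (-0.21, 0.0125).

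**Figure D5:**
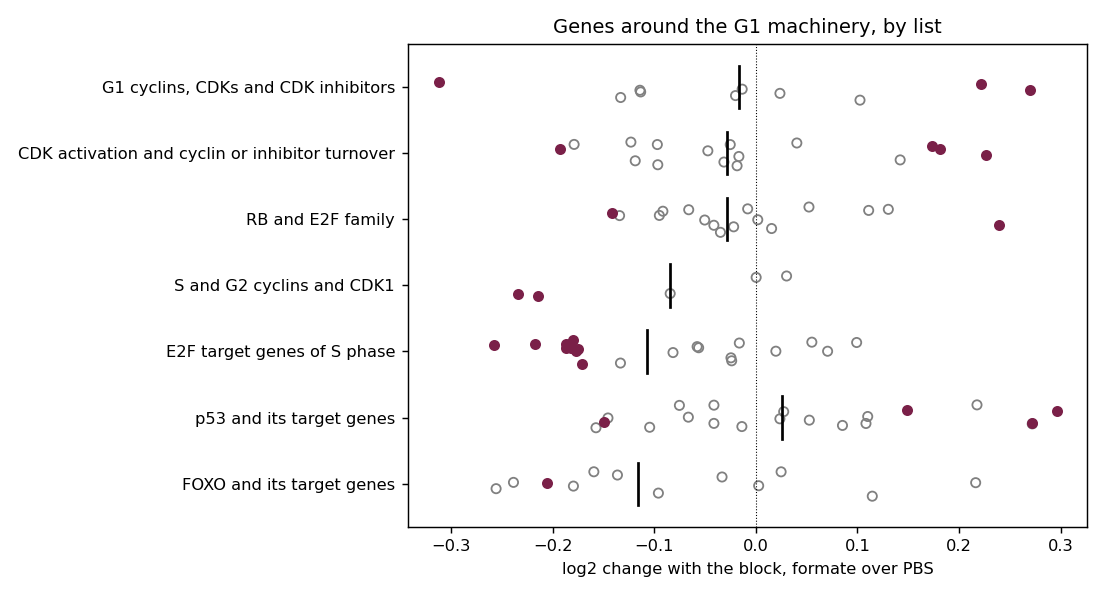
Paired log2 change, formate over PBS (horizontal axis), of the tested genes in each list; filled points have an edgeR adjusted p under 0.05 and black lines are list medians (vertical scatter has no meaning). The 9 called E2F targets all lie below 0, whereas the G1 members have calls on both sides (Ccnd3 at -0.31, Cdkn1b at 0.22 and Ccne2 at 0.27).

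Beside these changes, the share of counts on mitochondrially encoded genes was 0.560% to 0.906% with formate and 0.414% to 0.566% with PBS, and its part in them was not tested. Among the markers of other cells, the B cell gene Ms4a1 was the 1 of 7 listed B cell genes that passed in the paired fit and rose (3.67 ± 1.91 CPM with formate, 2.39 ± 1.16 CPM with PBS; SD, n = 4; edgeR adjusted p = 0.0275). The other 6 did not pass, among them Pax5 at -0.12 and Blk at -0.25. Eomes fell (-0.28, edgeR adjusted p = 0.00468); their part was not tested either. In bulk RNA, a smaller share of cells in one cycle phase and less of a transcript per cell cannot be told apart.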

How the data were processed

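The authors deposited 1 table of estimated counts per gene for the 8 libraries, which are expected counts and are neither normalised nor pooled. Trimmomatic, MultiQC and kallisto appear in the submitters' processing notes, as do GRCm38 and mm10, all without versions. The transcriptome release, strand setting and any filter were not given in the sources used here. Libraries were stranded polyA, read as pairs of 58 bases, per the labels' protocols. Of non-zero values 56.7% were not whole (tolerance 1e-06), and all were rounded. Reads of overlapping or antisense genes and of near-identical copies cannot be told apart here.

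Tests used edgeR 4.0.16 under R 4.3.3 (TMM, filterByExpr, robust quasi-likelihood, Benjamini-Hochberg over 13299 genes); DESeq2 1.42.0 was an alternative. SE is the log2 change divided by the root of F, and 95% intervals follow from it. GC offsets used a smooth trend per library (span 0.3) on GENCODE M21 transcripts (GRCm38), which matched 13200 tested genes. CPM is TMM-normalised. The test code was checked on simulated data.

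Neighbouring title codes served as a block. Deviations from group means correlated at 0.369 to 0.656 for neighbours, and at 0.270 to 0.373 for other pairs of the same code set. For libraries of different code sets they correlated at -0.614 to -0.250. The ranges for neighbours and for other pairs of a set overlap, so they do not clearly tell pairs from sets. No 2 libraries of a group agreed within sampling noise (smallest chi-square per degree of freedom 22.2). All 10 members and all 5 other D cyclin and CDK inhibitor genes are named, and of other lists up to 4 called genes by smallest p. Skp2, Hba-a1, Ms4a1, Pax5, Blk and Eomes were chosen after their values were seen. The members and lists were chosen with earlier results of these data known.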

Additional observations from a re-analysis of the deposited data

Results flagged for a closer look

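Within the 4 PBS libraries, Ccne2 of code 1 stood apart at 55.0 CPM, with the other 3 between 62.3 and 63.4 CPM; its gap to the nearest of them was 0.864 of the group's range. Of 20 groups examined (10 members in each treatment) this was the 1 set apart, and chance gives about 1 in 20. Without that library the unpaired log2 change of Ccne2 was 0.23, and without codes 1 and 2 the paired one was 0.34 (edgeR adjusted p = 0.0350). The cause was not tested.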

How the results depend on the processing

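The unpaired count of 1 gene became 1711 with the replicate block and 21 with DESeq2, and 0 to 1 when any one library was left out; for the members, 0 became 3 with the block and 1 with DESeq2. The paired count of 1711 genes (3 members) was 828 (1) within codes 1 to 8, 61 (0) within codes 10 to 14, 337 to 1371 (1 to 3) without one pair (leaving out codes 1 and 2 gave 337, the pair of 7 and 8 gave 722, that of 13 and 14 gave 502), and 1 member passed with GC offsets. Without low-count filtering the paired fit called 2277 of 23059 genes and 4 members, as Cdkn1a also passed (-0.14, edgeR adjusted p = 0.0434).

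Changes near 0 turned sign. Unpaired, Ccne1 had 0.013 with library size only, and Cdk6 0.0017 with upper quartile scaling and 0.014 with library size only. Paired, Ccne1 had 0.00044 with upper quartile scaling, 0.016 with library size only, 0.011 with GC offsets and 0.047 within codes 10 to 14; Cdk6 had 0.0069 and 0.022 with these scalings and 0.033 within codes 1 to 8. When one library was left out, the unpaired ranges were -0.25 to 0.043 for Ccnd2, -0.076 to 0.040 for Ccne1, -0.0077 to 0.055 for Cdk4, -0.16 to 0.12 for Cdk6, -0.28 to 0.067 for Cdkn1a and -0.13 to 0.64 for Cdkn1b; without one pair, -0.048 to 0.011 for Ccne1 and -0.074 to 0.074 for Cdk6 (0.024 without codes 1 and 2). Ccnd3 and Ccne2 kept their direction in all alternatives of both fits, as did Cdk2 and Cdkn2c, which passed in neither fit. The causes were not tested. With median transcript lengths, CPM per kb was 439 for Cdk4, 381 for Ccnd3, 709 for Ccnd2, 102 for Cdkn1a, 78.2 for Ccne1, 230.1 for Cdk6, 24.5 for Cdkn1b and 9.56 for Cdkn2c.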

Other observations

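Other D cyclin and CDK inhibitor genes were scarce or did not differ detectably. Ccnd1, the D cyclin of many non-lymphoid cells, had 0.620 ± 0.330 CPM with formate and 0.854 ± 0.389 CPM with PBS (SD, n = 4; paired log2 change -0.42, SE 0.54, edgeR adjusted p = 0.670). Cdkn2d, an inhibitor of the D cyclin kinases, had 56.8 ± 21.1 CPM with formate and 57.3 ± 25.1 CPM with PBS (0.01, SE 0.06, adjusted p = 0.933). Cdkn1c (0.305 ± 0.0723 CPM with formate and 0.247 ± 0.123 CPM with PBS), Cdkn2a (0.152 ± 0.141 with formate and 0.0564 ± 0.0229 with PBS) and Cdkn2b (0.0784 ± 0.0753 with formate and 0.0466 ± 0.0779 with PBS) fell below the filter on low counts; 3 counts in the smallest library equal 0.102 CPM.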
